A study of Mus musculus with 12 samples.

Results

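The 10 genes described here, Vcan, Fn1, F13a1, Ccr2, Csf1r, Cx3cr1, Lyz2, Lgals3, Wfdc17 and Psap, are genes used to recognise classical monocytes, and they were followed through whole bone marrow of irradiated and carotenoid-treated mice. They were taken by name from a deposited expression table of 21853 genes. All 10 passed the filter on low values, a minimum FPKM of 1 in 3 or more libraries, as did 10994 genes in all. FPKM is the number of sequenced fragments scaled by transcript length and library size. It does not correct for differences in the makeup of the libraries, which are given below and limit comparisons between them. The set was chosen by name with the FPKM differences between these same groups already known, those of Vcan and Wfdc17 against control among them, so the levels are a description and carry no test. Each of the 4 groups had 3 libraries of whole bone marrow cells from B6 mice. Control mice were not irradiated. TBI mice received 5 Gy of total body gamma irradiation at 0.66 Gy/min and then a gavage of 100 µL of the vehicle, olive oil. TBI+DEIX mice received the same irradiation and then oral DEIX at 25 mg/kg once a day for 14 days, and DEIX mice received DEIX without irradiation. Marrow was collected 14 days after irradiation. DEIX stands for deinoxanthin, a carotenoid of radiation-resistant bacteria. The labels give control mice no gavage and no vehicle, and age and sex are not given in the sources used here. In the comparisons with control, dosing itself therefore cannot be told apart from irradiation, from DEIX, or from both together. The effect of DEIX was taken against vehicle in irradiated mice and against no gavage in unirradiated mice. The interaction below therefore also holds this difference in dosing.

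Classical monocytes are made in the bone marrow from progenitors that depend on the growth factor receptor encoded by Csf1r, and they leave the marrow for the blood by means of the chemokine receptor Ccr2. They then enter injured tissue, where they become macrophages, or turn into patrolling nonclassical monocytes that carry much Cx3cr1. Monocytes also make extracellular proteins, among them versican (Vcan), fibronectin (Fn1) and the clotting factor XIII A subunit (F13a1), and they are rich in lysosomal and secreted proteins such as lysozyme (Lyz2), galectin-3 (Lgals3) and prosaposin (Psap). Several of these genes are not private to monocytes: neutrophils and macrophages express Lyz2, platelets and macrophages F13a1, stromal cells Fn1, and most cells Psap.

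All 10 are annotated as protein-coding in GENCODE vM21 (mouse genome GRCm38). Vcan (ENSMUSG00000021614.16) lies on chromosome 13 from 89655312 to 89742509 on the minus strand. Fn1 (ENSMUSG00000026193.15) lies on chromosome 1 from 71585520 to 71653200 on the minus strand. F13a1 (ENSMUSG00000039109.16) lies on chromosome 13 from 36867178 to 37050244 on the minus strand, and Wfdc17 (ENSMUSG00000069792.5) on chromosome 11 from 83703991 to 83706268 on the plus strand. Ccr2 (ENSMUSG00000049103.14) lies on chromosome 9 from 124101950 to 124113557, plus strand, and Cx3cr1 (ENSMUSG00000052336.7) on the same chromosome from 119901616 to 120069879, minus strand. Lyz2 (ENSMUSG00000069516.8) lies on chromosome 10 from 117277331 to 117282321, minus strand, and Psap (ENSMUSG00000004207.14) on that chromosome from 60277627 to 60302597, plus strand. Lgals3 (ENSMUSG00000050335.17) lies on chromosome 14 from 47367751 to 47386160, plus strand. Vcan, Fn1, F13a1 and Wfdc17 passed the threshold in DEIX against control, and the promoters of the 3 that have an entry in the RefSeq promoter table are shown for that reason. Each is the 250 bases before the RefSeq start on GRCm38.p6, 5′ to 3′ on the strand of the gene, with capitals for the core letters bound by PU.1, the myeloid transcription factor encoded by Spi1 (GAGGAA, or TTCCTC on the other strand). The Vcan window is chr13:89742513-89742762, the Wfdc17 window chr11:83703806-83704055 and the F13a1 window chr13:37050245-37050494.
Vcan: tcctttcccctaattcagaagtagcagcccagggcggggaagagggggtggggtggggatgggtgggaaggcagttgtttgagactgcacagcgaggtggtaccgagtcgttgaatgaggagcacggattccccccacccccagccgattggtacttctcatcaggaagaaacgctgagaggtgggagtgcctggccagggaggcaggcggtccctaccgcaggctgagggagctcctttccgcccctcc
Wfdc17: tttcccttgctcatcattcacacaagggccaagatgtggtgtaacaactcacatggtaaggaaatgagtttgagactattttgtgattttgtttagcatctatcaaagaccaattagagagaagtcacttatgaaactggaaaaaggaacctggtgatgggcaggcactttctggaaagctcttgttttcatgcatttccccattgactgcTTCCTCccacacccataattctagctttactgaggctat
F13a1: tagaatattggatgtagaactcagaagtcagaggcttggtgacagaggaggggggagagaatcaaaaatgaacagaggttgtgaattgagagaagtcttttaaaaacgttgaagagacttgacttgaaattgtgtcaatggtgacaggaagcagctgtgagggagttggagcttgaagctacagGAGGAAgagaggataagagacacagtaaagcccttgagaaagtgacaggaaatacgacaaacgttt
The Vcan window held no copy of these letters, and 62.4% of its bases were G or C. The Wfdc17 window held TTCCTC, which begins 39 bases before the start, and the F13a1 window held GAGGAA, which begins 66 bases before the start. A second F13a1 window, chr13:37049214-37049463, held none. Over the 10 windows of the 8 members with a promoter entry, 3 had a match, the other one being of Psap, and 23.3% of all 32817 promoter windows of the same length had one. The C/EBP letters TTGCNNAA (TTNNGCAA on the other strand) were in the windows of 0 members and in 9.57% of all windows.

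The libraries bear on every value below. FPKM sums per library ranged from 493683 to 848843, and 10359 to 10832 genes per library reached an FPKM of 1. The number of reads is not given, and the FPKM worth of 1 read, read from steps among low values, was between 0.896 and 1.88 times that of control replicate 1. TBI+DEIX replicate 1 stood apart: its profile correlated at 0.929 to 0.938 with the rest of its group, against a median of 0.982 over all pairs within groups. That library had 919 FPKM of Lyz2 and 57.0 FPKM of the neutrophil gene Ly6g, named after its values were seen, where the other TBI+DEIX libraries had at least 11208 and 724. Not every neutrophil gene was low in it. Of the 11 followed below, Ltf, Lcn2, Mmp9, Cxcr2 and Cd177, named after their values were seen, were above every control library, and the rest below every one. The changes in TBI+DEIX named below, and the correlations, are given with and without TBI+DEIX replicate 1. S100a8, S100a9 and Ngp, neutrophil genes of very high level, made up 0% of the FPKM sum in control replicate 3 and TBI+DEIX replicate 2, where they are listed at 0, and 10.4% to 26.4% elsewhere. This moves the sums and every value on a scale that depends on them. The labels do not say that libraries came from separate mice, so any test measures only the spread between these samples, and in bulk marrow fewer cells of a type and less RNA per cell cannot be told apart.

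Vcan, which encodes a large chondroitin sulfate proteoglycan of the matrix, had the largest log2 change from control of the 10 genes in TBI and in DEIX. Its level was 1.84, 2.08 and 1.13 FPKM in control, 23.0, 12.2 and 6.20 after TBI, 27.4, 12.6 and 32.0 in TBI+DEIX, and 46.0, 32.8 and 23.4 in DEIX. Every library of the other groups was above every control library, whereas TBI, TBI+DEIX and DEIX, in rising order of their means, each overlapped the next. The mean in TBI+DEIX was 24.0 ± 10.1 FPKM (SD, n = 3), 14.25 times the 1.69 ± 0.496 of control. The log2 change of FPKM + 1 against control was 3.14 (SE 0.43) for TBI+DEIX, 3.00 without TBI+DEIX replicate 1, beside 2.31 for TBI and 3.67 for DEIX.

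Fn1 encodes fibronectin, the matrix glycoprotein that integrins bind. Its level was 106, 88.8 and 81.0 FPKM in control, 124, 106 and 85.4 after TBI, 40.8, 58.6 and 53.8 in TBI+DEIX, and 160, 253 and 217 in DEIX. The DEIX libraries were all above, and the TBI+DEIX libraries all below, every control and TBI library, while control and TBI overlapped. The mean in DEIX was 2.28 times that in control and 4.11 times that in TBI+DEIX. The log2 change was 1.17 (SE 0.20) for DEIX against control and -0.84 (SE 0.20) for TBI+DEIX against control, and for TBI+DEIX against TBI it was -1.03 (SE 0.20). Without TBI+DEIX replicate 1 the last 2 values were -0.69 and -0.88.

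In the TBI+DEIX libraries Vcan was thus above every control library and Fn1 below every one. Vcan was 1.40% to 2.34% of the Fn1 level in control, 7.26% to 18.5% after TBI, 10.8% to 28.7% in DEIX and 21.55% to 67.2% in TBI+DEIX. Over the 12 libraries the log2 levels of the 2 genes had a Pearson r of 0.21 (0.39 without TBI+DEIX replicate 1), given as a description of points that share groups and libraries. Stromal cells also make fibronectin, and the 14 marker genes of stroma, bone and endothelium, 7 of which passed the filter, summed to 30.9 to 37.6 FPKM in control, 24.4 to 48.3 after TBI, 21.8 to 30.6 in TBI+DEIX and 13.4 to 23.2 in DEIX. The part of these cells in the Fn1 level was not tested.

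**Figure D1:**
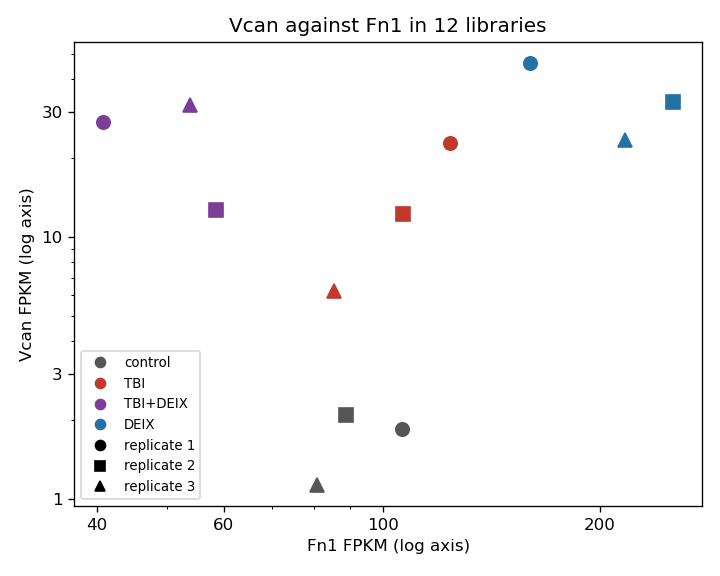
Vcan FPKM (vertical log axis) against Fn1 FPKM (horizontal log axis) in the 12 libraries, 1 point each, with colour for the group and shape for the replicate. Control libraries lie lowest, at 1.13 to 2.08 FPKM of Vcan, the TBI+DEIX libraries lie farthest left, at 40.8 to 58.6 FPKM of Fn1, and the DEIX libraries lie farthest right, at 160 to 253.

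F13a1 encodes the A subunit of factor XIII, the transglutaminase that cross-links fibrin and fibronectin. Its level was 129.5, 114 and 114 FPKM in control, 167, 117 and 90.8 after TBI, 111, 69.8 and 90.0 in TBI+DEIX, and 249, 233 and 223 in DEIX. The DEIX libraries were above all others and the TBI+DEIX libraries below every control library. The log2 change against control was 0.98 (SE 0.21) in DEIX, 0.03 (SE 0.21) in TBI and -0.42 in TBI+DEIX, or -0.58 without TBI+DEIX replicate 1. F13a1 and Fn1 had the same order of group means, DEIX, TBI, control, TBI+DEIX, and a Pearson r of 0.86 over the 12 libraries (0.93 without TBI+DEIX replicate 1). Platelets also hold factor XIII, and the 8 megakaryocyte and platelet genes summed to 114 to 176 FPKM in control, 36.0 to 52.6 after TBI, 28.8 to 44.2 in TBI+DEIX and 64.0 to 113 in DEIX. The part of these cells in the F13a1 level was not tested.

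**Figure D2:**
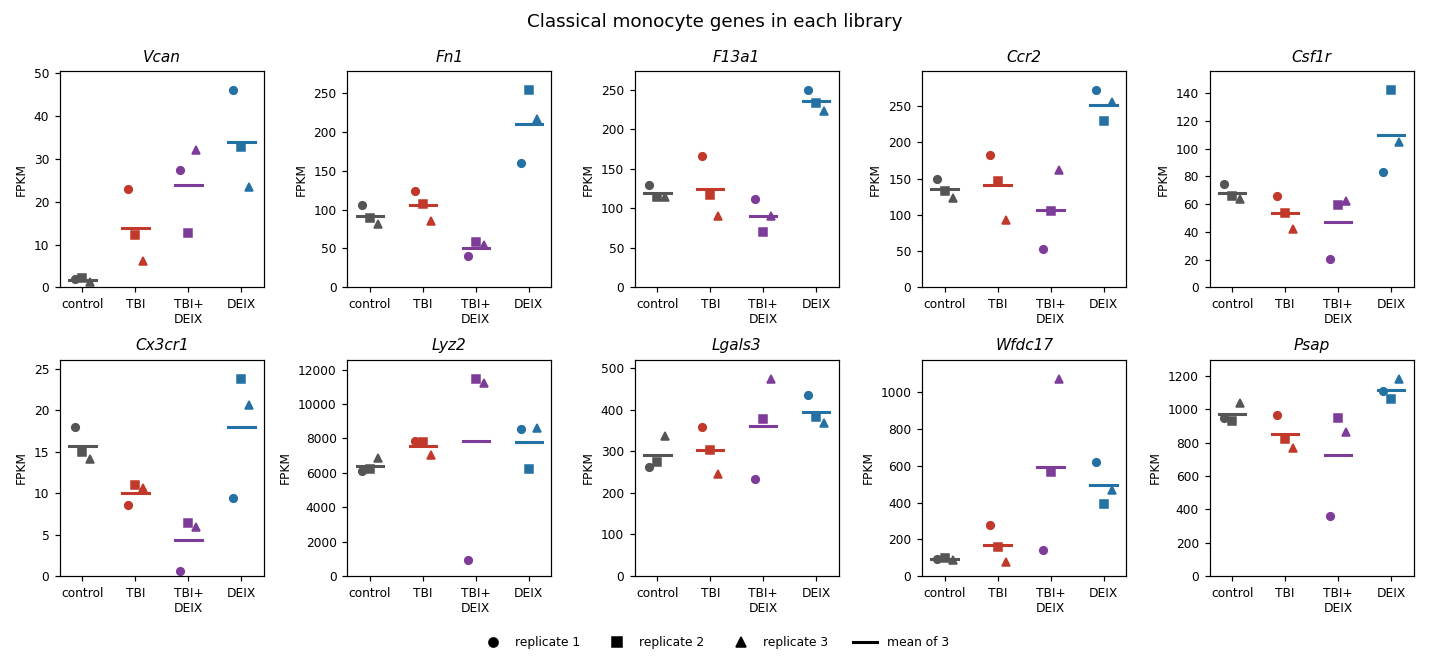
FPKM (vertical axes, linear from 0) of the 10 genes in the 12 libraries, 1 panel per gene, with a point per library and a line at the mean of each group (n = 3). Vcan is above control in all 3 other groups, Fn1 and F13a1 are highest in DEIX, and 1 TBI+DEIX library (replicate 1) lies far below the others of its group for Lyz2 (919 FPKM) and Csf1r (20.4 FPKM).

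Among the receptors, Ccr2, which responds to the chemokines CCL2 and CCL7, was 150, 133 and 124 FPKM in control and 272, 229 and 256 in DEIX. TBI had 183, 146 and 92.9 FPKM and TBI+DEIX 52.2, 106 and 162. The DEIX libraries lay above all others, and the other 3 groups overlapped. The log2 change of DEIX against control was 0.89 (SE 0.35) and did not pass the threshold of an adjusted p under 0.05 in the model of all 12 libraries with equal weights, but passed with only these 2 groups fitted and with array weights. TBI+DEIX against control was -0.48, and -0.04 without replicate 1.

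Csf1r, the receptor for the growth factors CSF1 and IL-34, was lower in level and also highest in DEIX, with 74.8, 66.0 and 63.7 FPKM in control, 66.2, 53.7 and 41.9 after TBI, 20.4, 59.7 and 62.0 in TBI+DEIX, and 83.2, 142 and 105 in DEIX. All TBI+DEIX libraries were below control and all DEIX libraries above it. The log2 change of DEIX against control passed the threshold only with these 2 groups fitted alone and with array weights. Without TBI+DEIX replicate 1 the log2 change of TBI+DEIX against control was -0.16, in place of -0.67. Csf1r (ENSMUSG00000024621.16) lies on chromosome 18 from 61100598 to 61132149, plus strand. It shares 873 of its 5774 exon bases with Hmgxb3 on the opposite strand, and whether counting used strand is not given in the sources used here.

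Cx3cr1, the receptor for fractalkine, was the only 1 of the 10 genes with TBI libraries wholly below control. It was 18.0, 14.99 and 14.1 FPKM in control, 8.53, 10.9 and 10.6 after TBI, 0.647, 6.43 and 5.93 in TBI+DEIX, and 9.39, 23.7 and 20.6 in DEIX. Every TBI library was below every control library, every TBI+DEIX library was below every TBI library, and DEIX overlapped control. The mean in control was 3.62 times that in TBI+DEIX, with a log2 change of -1.92 (SE 0.50), and of -1.21 without TBI+DEIX replicate 1. Vcan and Cx3cr1 had the lowest correlation of any pair of the 10 genes, with a Pearson r of -0.34 over the 12 libraries, and -0.27 without TBI+DEIX replicate 1. Without that library Cx3cr1 with Lyz2 was the lowest, at -0.76 in place of 0.65.

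Of the secreted and lysosomal genes, Wfdc17, which encodes a small whey acidic protein domain protein of myeloid cells, had the largest log2 changes from control. It was 92.3, 99.6 and 87.0 FPKM in control, 276, 156 and 76.5 after TBI, 142, 567 and 1072 in TBI+DEIX, and 621, 395 and 466 in DEIX. The DEIX and TBI+DEIX libraries all lay above control, TBI overlapped control, and the TBI+DEIX libraries spread over 142 to 1072 FPKM. The mean was 5.31 times control in DEIX and 6.39 times control in TBI+DEIX, with log2 changes of 2.37 and 2.24 (SE 0.62 for each), the latter 3.06 without TBI+DEIX replicate 1. Its relative Slpi, the secretory leukocyte protease inhibitor, was also highest in TBI+DEIX replicate 3, at 3855 FPKM, against 157 and 562 in replicates 1 and 2.

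Lyz2, the lysozyme of myeloid cells, was the most abundant of the 10, with 6119 to 6837 FPKM in control, 7052 to 7840 in TBI and 6242 to 8606 in DEIX. TBI+DEIX had 919, 11441 and 11208 FPKM, so its libraries were both the lowest and the highest of the 12. The log2 change of TBI+DEIX against control was -0.38 and turned to 0.83 without replicate 1, a library that decides the sign. Neutrophils also express Lyz2, and the 11 neutrophil genes summed to 22386 to 31139 FPKM in control and to 21917, 53993 and 52065 in TBI+DEIX, lowest again in replicate 1. Lyz1, the neighbouring paralog, was at 0.336 to 6.80 FPKM, its lowest value also in TBI+DEIX replicate 1. The longest reading frames of the 2 genes are identical at 425 of 447 aligned bases, so reads could be shared between them and both values are uncertain to that extent.

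Lgals3, a galactoside-binding lectin of macrophages, was 262, 274 and 337 FPKM in control, 358, 304 and 245 after TBI, 233, 378 and 474 in TBI+DEIX, and 435, 382 and 367 in DEIX. Only the DEIX libraries were clear of control, all above it, with a log2 change of 0.44 (SE 0.24). Psap, the precursor of the saposins that help lysosomal enzymes break down sphingolipids, was 949, 932 and 1036 FPKM in control, 966, 821 and 767 after TBI, 359, 944 and 864 in TBI+DEIX, and 1109, 1062 and 1179 in DEIX. The DEIX libraries were again all above control, with a log2 change of 0.20 (SE 0.30). Neither gene passed the threshold in the model of all 12 libraries on the FPKM scale with equal weights. With array weights Lgals3 passed in DEIX and in TBI+DEIX against control and in TBI+DEIX against TBI, and on the TPM scale without S100a8, S100a9 and Ngp Psap passed in TBI+DEIX against control. Without TBI+DEIX replicate 1, TBI+DEIX against control was 0.55 for Lgals3 and -0.10 for Psap, in place of 0.26 and -0.55.

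**Figure D3:**
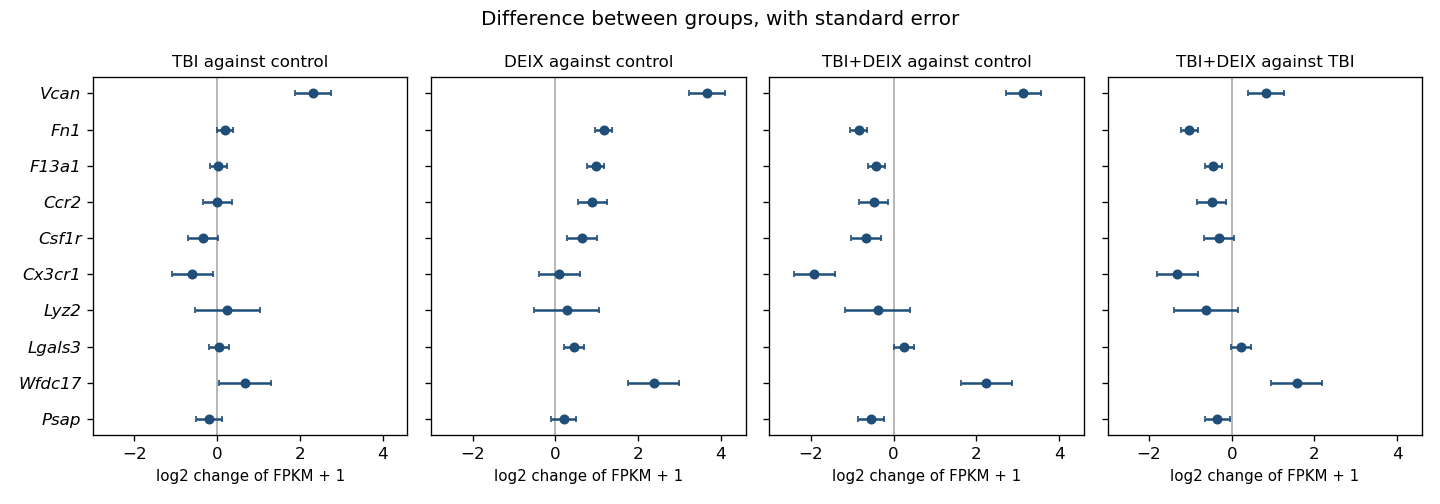
Log2 change of FPKM + 1 (horizontal axis) of the 10 genes in the comparisons, with bars of 1 SE from the model of all 12 libraries. Against control, DEIX values run from 0.09 (Cx3cr1) to 3.67 (Vcan), and TBI+DEIX values run from -1.92 (Cx3cr1) to 3.14 (Vcan).

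Counted over the 10 genes, DEIX against control had the most in 1 direction. In that comparison 4 of 10 (Vcan, Fn1, F13a1 and Wfdc17) passed the threshold as higher, beside 4.52% of all tested genes, and 0 as lower, beside 2.72%. For 8 of 10 the DEIX libraries lay wholly above control, beside 23.4%, and for 0 wholly below, beside 17.2%. The log2 change was above 0 for all 10, beside 52.3%, and for 9 without DEIX replicate 2 or 3. The median log2 change was 0.77, against 0.02 over all genes tested. With 1 library left out, Fn1 no longer passed without control replicate 2 or 3, F13a1 without any control replicate or DEIX replicate 1 or 3, and Wfdc17 without any of the 6 libraries. On a scale that makes the values of each library sum to the same total (TPM), which moves the median of all genes to -0.126 in this comparison, F13a1 did not pass and 9 of the 10 changes stayed above 0. The number of the 10 that passed was 6 with only these 2 groups fitted (Ccr2 and Csf1r added), 7 with array weights (Lgals3 added to these), and 3 without the filter and with a replicate block, where Wfdc17 did not pass. Markers of B lineage cells also differed in DEIX: the 9 genes summed to 385 to 464 FPKM in control and 58.5 to 92.5 in DEIX, with a median log2 change of -2.38. All 9 lay wholly below control, but only 1 was called lower. The 11 neutrophil genes summed to 22386 to 31139 and 26819 to 37563 FPKM, which overlap, with a median of 0.60, 10 of 11 above 0 and 1 called higher. The part of these cells in the members' levels was not tested. Nothing is read from the members' counts, since the comparison was in view when the genes were picked.

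TBI against control had 1 of 10 genes past the threshold, Vcan, beside 0.891% of tested genes called higher, and 0 lower, beside 3.1%. Its call was lost without control replicate 1 or 3 or TBI replicate 2. With only these groups fitted 1 of the 10 passed as lower, beside 853 of 10994 tested genes, and with array weights 2 did, beside 1825. Of 8 megakaryocyte and platelet genes 4 fell after TBI, with a median log2 change of -0.97, and the part of these cells in the members' levels was not tested. Vcan and Lyz2 had TBI libraries wholly above control, beside 22% of tested genes, and Cx3cr1 wholly below, beside 16.3%. TBI+DEIX against control had 2 higher (Vcan and Wfdc17) and 2 lower (Fn1 and Cx3cr1), beside 16.9% and 13.1% of tested genes, and without TBI+DEIX replicate 1 there were 4 higher, with Lyz2 and Lgals3 added, and 3 lower, with F13a1 added, beside 2547 and 1685 of the 10994 tested genes. In that comparison 2 of 10 had libraries wholly above control (23.9% of tested genes) and 4 wholly below (21.1%). Markers of other cells differed there too: 7 of 9 B lineage genes fell, with a median log2 change of -3.02 and sums of 385 to 464 FPKM in control and 6.63 to 179 in TBI+DEIX. Of 7 erythroid genes 6 fell, with a median of -2.20 and sums of 3188 to 5134 and 152 to 1489 FPKM, and of 9 tested dendritic cell genes 5 fell, with a median of -1.04 and sums of 663 to 793 and 130 to 663 FPKM over 10 genes. Of 11 neutrophil genes 4 rose, with a median of 0.72. When TBI+DEIX replicate 1 was left out, 6 B lineage, 2 erythroid and 5 dendritic cell genes fell and 10 neutrophil genes rose. The part of these cells in the members' levels was not tested. Wfdc17 lost its call there without any control replicate or TBI+DEIX replicate 2 or 3, and both Wfdc17 and Cx3cr1 lost theirs in a fit of these 6 libraries alone.

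Set against TBI alone, TBI+DEIX had 1 of 10 genes past the threshold, Fn1 as lower, beside 3.41% of tested genes, and 0 as higher, beside 4.69%. Fn1 and Cx3cr1 had TBI+DEIX libraries wholly below TBI (12.7% of tested genes), and 0 members wholly above (14.5%). Fn1 lost that call without TBI replicate 2 or 3 or TBI+DEIX replicate 3, and a fit of these 6 libraries alone called 0 genes in all, with 2015 at an unadjusted p under 0.05. Without TBI+DEIX replicate 1, Wfdc17 also passed, as higher, beside 1782 of the tested genes. Of 7 erythroid genes 3 fell here and all 7 lay wholly below TBI, with a median log2 change of -2.64, while 0 of 9 B lineage and 0 of 11 neutrophil genes were called. Without TBI+DEIX replicate 1, 3 erythroid genes fell and 8 neutrophil genes rose, beside 1054 and 1782 of 10994 tested genes. The part of these cells in the members' levels was not tested. The comparisons with control share the control libraries, and TBI+DEIX against TBI shares both of its groups with 2 of them. The interaction, the log2 effect of DEIX in irradiated mice minus that in unirradiated mice, was below 0 for all 10 genes, beside 53.5% of tested genes, and for 7 of 10 without TBI+DEIX replicate 1. Only Fn1 passed the threshold there, at -2.20 (SE 0.29), beside 0.0091% of tested genes called lower and 0.191% called higher. Its call was lost without control replicate 3 or TBI replicate 2. The unlike dosing of control and TBI mice cannot be told apart from the interaction. When TBI+DEIX replicate 1 was left out, Fn1 (-2.04), Vcan (-2.98) and F13a1 (-1.58) passed, beside 49 of the tested genes called lower, and with array weights Ccr2 passed as well as these 3.

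The ligands and partners of these genes were followed in a list of 43 genes, 26 of which passed the filter. Against control, 0 rose and 2 fell in TBI (0.891% and 3.1% of all tested genes), 3 rose and 1 fell in DEIX (4.52% and 2.72%), and 5 rose and 2 fell in TBI+DEIX (16.9% and 13.1%). In TBI+DEIX 13 rose and 2 fell without TBI+DEIX replicate 1, beside 2547 and 1685 of 10994 tested genes. Csf1, the main ligand of the Csf1r receptor, fell after TBI, from 5.39, 5.82 and 5.98 FPKM in control to 2.29, 2.69 and 3.24, a log2 change of -0.86 (adjusted p = 0.00725). On the TPM scale its adjusted p was 0.0516. Of the chemokines listed here as possible ligands of Ccr2, Ccl8 was the only 1 to pass the filter, at 0.599, 0.344 and 0 FPKM in TBI and 1.57, 1.76 and 6.30 in TBI+DEIX. It passed only through TBI+DEIX, the one group with all libraries at or above an FPKM of 1, so its tests of TBI+DEIX against TBI and against control are not used. It is among the 13 genes counted above as rising without TBI+DEIX replicate 1. The others were low: Ccl2 was between 0.220 and 2.36 FPKM, Ccl7 at most 1.55, and Ccl12 at most 2.43, each highest in a TBI+DEIX library. Il34 and the Cx3cr1 ligand Cx3cl1 were at most 0.170 and 0.168 FPKM.

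Lgals3bp, a secreted partner of galectin-3, fell in all 3 groups against control, from 91.6 to 104 FPKM to 31.4 to 38.9 after TBI, 25.9 to 39.2 in DEIX and 32.4 to 53.3 in TBI+DEIX. The log2 changes were -1.42, -1.497 and -1.28 (adjusted p = 0.00254, 0.0039 and 0.00101), and all 3 were called in every alternative run. The last was -1.15 without TBI+DEIX replicate 1. Among the partners of Psap, 3 rose in DEIX, the sorting receptor Sort1 and the sphingolipid enzymes Galc and Asah1, with log2 changes of 0.65, 0.71 and 0.58 (adjusted p = 0.0269, 0.00753 and 0.0311). On the TPM scale these had adjusted p = 0.174, 0.161 and 0.191. Sort1 also lost its call without any control replicate or DEIX replicate 1 or 3, and Asah1 without any of the 6 libraries. Asah1 was called in only 6 of the 14 alternatives in this comparison. In TBI+DEIX against control, Galc (0.87, adjusted p = 0.000512) and Sort1 (0.78, adjusted p = 0.00303) rose in every alternative run, as did Tgm1, a transglutaminase related to F13a1 (2.26, adjusted p = 0.0017). These were 0.81, 0.87 and 2.14 without TBI+DEIX replicate 1.

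Of 15 other classical monocyte genes, all tested, 5 rose and 0 fell in DEIX against control, beside 4.52% and 2.72% of all tested genes, with a median log2 change of 0.39, and 0 were called in TBI against control, with a median of -0.28. The 5 were Cd14, Emilin2, Hp, F10 and Sirpa, of which F10 and Sirpa were named after their values were seen. Cd14, the lipopolysaccharide co-receptor, rose from 3.67, 3.64 and 4.35 FPKM in control to 13.8, 11.9 and 10.05 in DEIX, a log2 change of 1.40 (adjusted p = 0.00719) called in every alternative run. Emilin2, a matrix glycoprotein, rose by 0.95 (adjusted p = 0.00668), with an adjusted p of 0.0526 on the TPM scale. Hp, haptoglobin, rose by 0.90 (adjusted p = 0.038) and lost its call without any control replicate or DEIX replicate 1 or 3, without the filter, on the TPM scale and with a replicate block. F10 lost its call on the TPM scale and without any control replicate or DEIX replicate 1, and Sirpa without any of the 6 libraries. Chil3 and Ly6c2, the most abundant of the list, were not called, at 0.67 and 0.05.

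In TBI+DEIX against control 5 of the 15 rose and 3 fell, beside 16.9% and 13.1% of all tested genes, with a median of -0.28. When TBI+DEIX replicate 1 was left out, 5 rose and 1 fell, beside 2547 and 1685 of 10994 tested genes, with a median of 0.32. Cd14 was 24.6, 12.4 and 15.3 FPKM there, a log2 change of 1.87 (adjusted p = 0.000318), and Hp (1.12, adjusted p = 0.00421) and Emilin2 (1.07, adjusted p = 0.000527) also rose in every alternative run. The values without TBI+DEIX replicate 1 were 1.60 for Cd14, 1.25 for Hp and 1.05 for Emilin2. Ly6c2, a surface antigen of classical monocytes, was 545, 1613 and 2218 FPKM in TBI+DEIX and 1480 to 1551 in control, so the groups overlapped. Its log2 change of -0.28 was 0.32 without TBI+DEIX replicate 1.

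**Figure D4:**
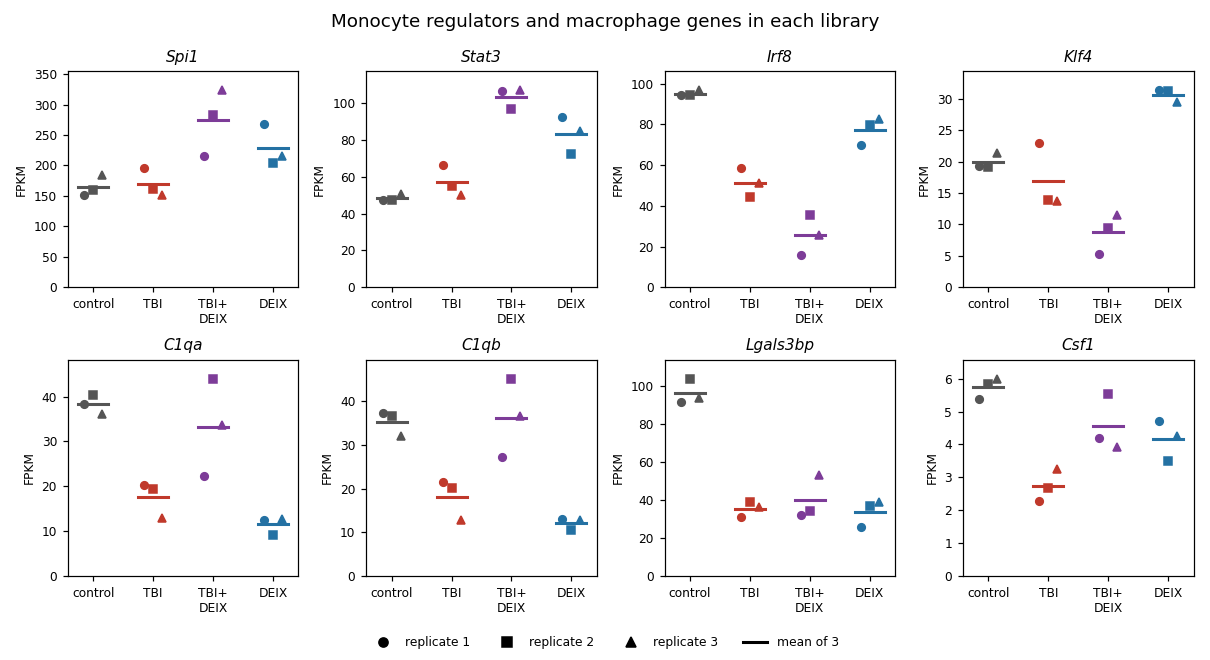
FPKM (vertical axes, linear from 0) of 8 companion genes (Spi1, Stat3, Irf8, Klf4, C1qa, C1qb, Lgals3bp and Csf1; Klf4 was added after its values were seen) in the 12 libraries, with a point per library and a line at the mean of each group (n = 3). Irf8 lies at 15.8 to 35.6 FPKM in TBI+DEIX and 94.2 to 96.6 in control, and C1qa lies at 9.23 to 12.8 in DEIX and 36.1 to 40.4 in control.

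Of 10 transcription factors of the monocyte lineage, 0 were called in TBI against control (0.891% of all tested genes higher and 3.1% lower), 1 rose and 0 fell in DEIX (4.52% and 2.72%), and 4 rose and 4 fell in TBI+DEIX (16.9% and 13.1%). Leaving out TBI+DEIX replicate 1, 3 rose and 5 fell, beside 2547 and 1685 of 10994. Irf8, needed for monocyte and dendritic cell progenitors, was 94.3, 94.2 and 96.6 FPKM in control, 58.5, 44.4 and 51.0 after TBI, 69.8, 79.8 and 82.7 in DEIX and 15.8, 35.6 and 25.8 in TBI+DEIX. Its fall in TBI+DEIX was -1.92 (adjusted p = 0.000316). Stat3, a signal transducer for cytokine receptors, rose by 0.76 in DEIX (adjusted p = 0.00753, and 0.111 on the TPM scale) and by 1.08 in TBI+DEIX (adjusted p = 0.000288). Spi1, the gene for PU.1, rose by 0.71 in TBI+DEIX (adjusted p = 0.0109). The 3 calls in TBI+DEIX held in every alternative run, with -1.62 for Irf8, 1.06 for Stat3 and 0.88 for Spi1 without TBI+DEIX replicate 1.

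Marrow macrophages, the other cells in which many of these genes are read, were followed with 16 genes, 15 of them tested. In DEIX against control 8 fell and 0 rose, beside 2.72% and 4.52% of all tested genes, with a median of -1.04. Without DEIX replicate 2, 6 fell, beside 335 of 10994 tested genes. In TBI against control 3 fell and 0 rose (3.1% and 0.891% of tested genes), C1qa, C1qb and C1qc, and each lost its call without any control replicate or TBI replicate 2 or 3, C1qc also without TBI replicate 1. C1qc was called in only 5 of the 14 alternatives there. In TBI+DEIX against TBI 3 rose and 0 fell (4.69% and 3.41%), C1qa (0.86), C1qb (0.96) and Hmox1 (0.78), and on the TPM scale, in a fit of those 6 libraries alone and without TBI replicate 3 none of the 3 was called. C1qa and Hmox1 also lost their calls without the filter and when replicate 2 of TBI or of TBI+DEIX was left out, C1qa with a replicate block, and C1qa and C1qb when TBI+DEIX replicate 3 was left out. Leaving out TBI+DEIX replicate 1, 8 rose and 0 fell, beside 1782 and 1054 of 10994 tested genes, with C1qa at 1.11, C1qb at 1.15 and Hmox1 at 0.67. In DEIX against control C1qa, C1qb and C1qc, the subunits of complement C1q, fell by 1.66, 1.46 and 1.63 on the log2 scale (adjusted p = 0.00447 for each), in every alternative run. C1qa was 38.2, 40.4 and 36.1 FPKM in control and 12.5, 9.23 and 12.8 in DEIX. The summed level of the list was 380 to 447 FPKM in control, 285 to 396 after TBI, 355 to 588 in TBI+DEIX and 292 to 345 in DEIX, and the part of these cells in the members' levels was not tested.

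By the rule of the highest Pearson r over the 12 libraries, the genes most like Vcan were Cdadc1, Gdap2, Shtn1, Vps26a and Kcnab2, each at 0.93 to 2 decimals, and at 0.92 to 0.95 without TBI+DEIX replicate 1. Shtn1 had group means of 0.770 FPKM in control, 2.11 after TBI, 3.43 in TBI+DEIX and 3.25 in DEIX. The genes most like Fn1 were Tmem150b (r 0.95), Rab36 (0.93), Ccl9 (0.92), Plcb1 (0.92) and Pid1 (0.91), which were at 0.89 to 0.93 without that library. Ccl9, a chemokine of myeloid cells, had group means of 53.4 FPKM in control, 48.9 after TBI, 37.2 in TBI+DEIX and 91.0 in DEIX. Among the 10 genes themselves the closest pairs were Ccr2 with Csf1r and Csf1r with Psap, each at 0.90. Without TBI+DEIX replicate 1 these were at 0.80 and 0.81, and Fn1 with F13a1 was the closest, at 0.93. The nearest to Vcan was Wfdc17, at 0.78, or 0.86 without that library.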

How the data were processed

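RNA of 12 whole bone marrow libraries was sequenced with a directional mRNA kit, per the labels' protocols. Per the submitters' processing notes, STAR 2.6, Cufflinks 2.2.1 and mm10 were used. The authors deposited 1 table of FPKM values, and no counts were used. Identifiers were matched to GENCODE vM21. Values were fitted as log2(FPKM + 1), which understates changes of low genes, with limma 3.58.1 in R 4.3.3 (moderated by eBayes, trend on) as 4 group means over 12 libraries (8 residual degrees of freedom), with Benjamini-Hochberg adjustment over 10994 genes and a threshold of 0.05. The within-group spread differed between groups, which 1 shared model does not allow for. The fit was tested on simulated data. Alternatives were another pseudocount (0.1), no filter, a mean FPKM of at least 5, TPM scales, only the groups compared, array weights, a replicate block and leaving out each library. List counts without TBI+DEIX replicate 1 or DEIX replicate 2, and correlations without the former, were added after seeing the data. Members and lists were chosen with earlier results of these data known. From each list, the 3 tested genes of highest mean FPKM, and those called where 3 or fewer were, could be named, as could every partner and the 5 genes most like Vcan or Fn1.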

Additional observations from a re-analysis of the deposited data

Results flagged for a closer look

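The interaction, the log2 effect of DEIX in irradiated mice minus that in unirradiated mice, was called for 22 of 10994 tested genes, 0.191% as higher and 0.0091% as lower. The companion genes followed through the alternative runs held 4 of these, C1qa, C1qb, C1qc and Lgals3bp. Of the 15 tested macrophage genes, 5 were called higher, C1qa, C1qb, C1qc, Cd5l and Spic, the last 2 named after their values were seen, and 8 without TBI+DEIX replicate 1, beside 282 of 10994 tested genes. C1qa was at 2.52, C1qb at 2.43 and C1qc at 2.27 (adjusted p = 0.0142, 0.0142 and 0.016), and at 2.77, 2.62 and 2.52 without TBI+DEIX replicate 1. Of these C1qb was called in every alternative run. Lgals3bp was at 1.63 (adjusted p = 0.0488), and its adjusted p ran from 0.00124 to 0.167 over the alternatives. Fn1 also passed the threshold, at -2.20, which is given as a description because the gene was picked with these differences known. For 4 more of the 54 members and companions (7.41%, beside 2.97% of all tested genes) every DEIX library lay on one side of the control mean and every TBI+DEIX library on the opposite side of the TBI mean, while the difference itself was not called: F13a1 at -1.42, Klf4, named after its values were seen, at -1.49 (adjusted p = 0.137), Csf1 at 0.96 (adjusted p = 0.115) and Hmox1 at 1.20 (adjusted p = 0.137). Without TBI+DEIX replicate 1 these were -1.58, -1.21, 1.00 and 1.096, and the difference was called for Klf4 (adjusted p = 0.0275), Csf1 (adjusted p = 0.0263) and, as a description, F13a1, but not for Hmox1 (adjusted p = 0.0585). Nothing is read from the 7.41% beside 2.97%, since members and companions were chosen with results of these data known. No formal test for an outlying value was run within groups of 3 libraries.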

How the results depend on the processing

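The number of genes called depended on the processing. TBI against control called 439, with 675 without the filter, 134 at a mean FPKM of at least 5, 285 on the TPM scale, 1417 with only the groups compared, 4218 with array weights and 153 to 259 with 1 library left out. DEIX against control called 796, with 313 on the TPM scale, 451 on a TPM scale without S100a8, S100a9 and Ngp, 2057 with only the groups compared, 4508 with array weights and 146 to 938 with 1 library left out. TBI+DEIX against control called 3299, with 1941 on the TPM scale, 2181 with only the groups compared, 6187 with array weights and 2004 to 4232 with 1 library left out. TBI+DEIX against TBI called 891, with 136 and 464 on those TPM scales, 0 with only the groups compared, 4488 with array weights and 5 (without TBI replicate 3) to 2836 (without TBI+DEIX replicate 1) with 1 library left out. The interaction called 22, with 11 at a pseudocount of 0.1, 37 without the filter, 7 at a mean FPKM of at least 5, 35 on the TPM scale, 532 with array weights and 4 to 331 with 1 library left out. The share called higher was 62.4% in DEIX against control and 18.2% on the TPM scale, and 22.3% and 8.77% in TBI, 56.2% and 29.8% in TBI+DEIX, 57.9% and 36% in TBI+DEIX against TBI, and 95.5% and 82.9% in the interaction. With a replicate block, TBI+DEIX against TBI called 474, and the others 378, 640, 3000 and 20 in the order of the other comparisons above; same-numbered libraries did not deviate together (r from -0.397 to 0.258, with 3 of 18 pairs above 0.1). The sign changed in at least 1 alternative for 12 of 50 log2 changes of the 10 genes and for 49 of 220 of the other named genes. Those called with the opposite sign were Lyz2 in TBI+DEIX against control (0.77 with array weights, and from -0.99 to 0.83 with 1 library left out, highest without TBI+DEIX replicate 1), Cd68 in the same comparison (0.41, and -0.55 to 0.43) and against TBI (0.45, and -0.47 to 0.51), and Ly6c2 against TBI with array weights (0.51). The cause was not tested. The depth of the libraries, which is not given, also limits what can be read from low genes.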
